A study of Mus musculus with 23 samples.

Results

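The comparison concerns 6 of 23 expression arrays: 3 arrays of Wnt3-/- cells whose titles give WNT3A, at 12, 24 and 36 h, and the 3 arrays of Wnt3+/+ cells given BMP4 at the same times. They were chosen by their titles and paired by time. The cells were male C57BL/6 mouse embryonic stem cells carrying a transgene in which regulatory elements of Blimp1 drive a membrane-bound Venus protein. They had first been turned into epiblast-like cells, a culture counterpart of the epiblast, in medium with Activin A and bFGF. They were then grown as floating aggregates with leukemia inhibitory factor and serum replacement, with or without BMP4 at 500 ng/ml or WNT3A at 50 ng/ml. The Wnt3-intact group had BMP4 only, and the control Wnt3-/- group used below, also 3 arrays, had BMP4 only as well. Only 1 Wnt3-/- and 1 Wnt3+/+ line are described, so the genotype and the line cannot be told apart. Each line, condition and time has 1 array, so the 3 times serve as replicates. The p-values measure only a spread between arrays, pooled over all 7 conditions and 21 arrays at these times. In the comparisons over all 3 times, a gap that changes with time adds to that spread. Genes apart only at a late time are therefore less likely to pass.

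The labels of the knockout group disagree. The titles of the 3 knockout arrays give WNT3A without BMP4, but the array names in their descriptions give BMP4 and WNT3A. For another 3 knockout arrays the titles give both cytokines and the array names give WNT3A only. Id1, which BMP signalling switches on directly, read 5480, 7591 and 9345 on the arrays titled WNT3A at 12, 24 and 36 h. On the knockout arrays titled for both cytokines it read 186, 256 and 1323. The Wnt3-intact BMP4 arrays gave 6339, 7383 and 9878 and the knockout BMP4 arrays 5557, 8192 and 10156. The arrays titled WNT3A thus read close to the arrays with BMP4, and the arrays titled for both read far below them at every time. The groups follow the titles throughout, and "knockout arrays titled WNT3A" is used for the first group. Under the array names, the comparison asks how fully added WNT3A stands in for Wnt3 when BMP4 is present.

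BMP4 binds serine/threonine kinase receptors that phosphorylate SMAD1 and SMAD5, and these switch on genes such as Id1, Msx2 and the feedback inhibitor Smad6. WNT ligands such as WNT3 and WNT3A stabilise beta-catenin, which binds TCF/LEF factors and activates Axin2, Sp5 and the secreted WNT antagonist Dkk1. In the mouse embryo both pathways are needed at the posterior epiblast to start the primitive streak and to set aside primordial germ cells, and Wnt3 mutants form no streak.

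The promoters of 3 genes named in the results are shown because each holds a short motif of one of these pathways. They come from RefSeq on GRCm38.p6 and run from 250 bases before to 50 bases after the gene's start. Capitals mark a TCF/LEF motif (CTTTGAT or CTTTGAA, searched on both strands) in Sp5 at chr2:70474673-70474972 on the plus strand and in Dkk1 at chr19:30549447-30549746 on the minus strand. In Smad6, at chr9:64022010-64022309 on the minus strand, they mark the palindromic SMAD motif GTCTAGAC. All are written 5′ to 3′ along the gene.
Sp5: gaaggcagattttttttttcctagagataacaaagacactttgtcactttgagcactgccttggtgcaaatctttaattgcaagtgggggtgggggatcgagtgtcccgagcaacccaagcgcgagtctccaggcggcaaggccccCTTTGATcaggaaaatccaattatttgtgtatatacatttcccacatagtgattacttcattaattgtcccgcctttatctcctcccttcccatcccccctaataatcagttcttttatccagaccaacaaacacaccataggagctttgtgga
Dkk1: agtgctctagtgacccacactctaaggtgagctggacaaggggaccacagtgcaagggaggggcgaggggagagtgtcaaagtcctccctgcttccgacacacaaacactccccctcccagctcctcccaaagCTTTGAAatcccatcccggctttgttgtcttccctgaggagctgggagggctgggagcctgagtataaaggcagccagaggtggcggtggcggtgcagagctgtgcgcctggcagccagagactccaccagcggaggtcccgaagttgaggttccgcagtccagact
Smad6: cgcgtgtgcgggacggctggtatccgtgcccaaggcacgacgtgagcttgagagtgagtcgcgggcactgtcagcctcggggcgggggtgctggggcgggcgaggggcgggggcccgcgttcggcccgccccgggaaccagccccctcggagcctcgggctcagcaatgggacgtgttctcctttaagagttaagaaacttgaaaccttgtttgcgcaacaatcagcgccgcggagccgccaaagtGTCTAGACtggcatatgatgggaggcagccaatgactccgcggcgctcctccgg
The TCF/LEF motif begins 104 bases before the start in Sp5 and 117 before it in Dkk1, and the SMAD motif begins 4 bases before the start of Smad6. Of all 32851 promoter windows of this length, 8.65% hold the TCF/LEF letters and 0.213% the SMAD letters. Of the 18 listed WNT response genes, 11 had a counted window. Of the 19 windows of these genes, 4 hold the TCF/LEF letters (Dkk1, Sp5, Sp8 and Tnfrsf19). Of the 13 listed BMP response genes, 7 had a counted window, each of its own gene, and 1 of these windows (Smad6) holds the SMAD letters. The remaining listed genes are outside these counts, so the counts do not describe the whole lists. A match is a description of the letters only.

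Wnt3 itself was read by 1 probe set. It gave between 11.2 and 27.9 on the knockout arrays and between 10.4 and 146 on the Wnt3-intact arrays. On the Wnt3-intact BMP4 arrays it read 19.0, 100 and 146 at 12, 24 and 36 h. The knockout arrays titled WNT3A read 17.4, 26.2 and 27.9, so the groups differed little at 12 h and were apart at 24 and 36 h. The mean difference was -1.12 ± 0.41 (SE; log2 of signal + 16, the scale of all differences below), with an adjusted p of 0.82. No source used here states whether this probe set lies in the deleted part of Wnt3. The ratio of the 3′ to the 5′ Gapdh probe sets, a sign of RNA length, was 1.10 to 1.44 on them and reached 4.03 elsewhere in the series.

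Across the genome, the knockout arrays titled WNT3A and the Wnt3-intact BMP4 arrays were close. Of 13256 genes tested, 1 passed an adjusted p of 0.05 (limma with time as a block, Benjamini-Hochberg adjustment), which is 0.00754%. A further comparison without added WNT3A gives the scale: knockout BMP4 arrays against the same Wnt3-intact BMP4 arrays had 958 genes past the threshold, or 7.23%, with 567 higher (4.28%) and 391 lower (2.95%) in the knockout. At an unadjusted p under 0.05 the counts were 759 and 2875. Differences between the knockout arrays titled WNT3A and the knockout BMP4 arrays, the direct test of what separates these knockout groups, passed for 527 genes (3.98%), with 241 higher (1.82%) and 286 lower (2.16%) in the arrays titled WNT3A. The 95% interval of the difference from the Wnt3-intact BMP4 arrays lay within 1 log2 unit of 0 for 12706 genes, or 95.9%. For the other genes, which include many of the pathway genes described below, larger differences remain within the intervals. For knockout BMP4 against Wnt3-intact BMP4 the interval lay within the same limit for 12122 genes, or 91.4%. That share alone therefore separates the comparisons little.

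These counts depend on the arrays used. The count of 1 became 0 without any 1 of the 24 h or 36 h arrays of either group. It became 6 without the Wnt3-intact BMP4 array at 12 h and 4 without the knockout array titled WNT3A at 12 h. The 958 genes fell to 7 when all 24 h arrays were left out and to 466 without all 12 h arrays. They fell to 533 without the Wnt3-intact BMP4 array at 24 h and to 513 without the one at 36 h. With the labels of the conflicting knockout arrays exchanged, so that the arrays titled for both cytokines stand against Wnt3-intact BMP4, 125 genes passed (0.943%). Id1 was then lower by 4.32 on the log2 scale, with an adjusted p of 0.000151 and a lower value at every time.

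The gene that passed was AI662270, a non-coding transcript at chr11:83223576-83226584 on GRCm38.p6. Its name falls outside the naming rule and it was singled out after its values were seen. It read 320, 307 and 231 on the knockout arrays titled WNT3A and 142, 139 and 101 on the Wnt3-intact BMP4 arrays. The groups did not overlap, and the difference was 1.02 ± 0.14 with an adjusted p of 0.0181, higher in 3 of 3 pairs. Knockout BMP4 arrays read 362, 276 and 234, and knockout arrays without cytokine were higher than Wnt3-intact arrays without cytokine by 1.01. At 0 h the knockout array was lower by 0.23. AI662270 was still past the threshold when 1 of the 12 h arrays of the pair was left out. It was not past it without any 1 of the 24 h or 36 h arrays (adjusted p from 0.0958 to 0.175), without all 12 h arrays (0.299) or without the 3 knockout arrays titled for both cytokines (0.0657). Restricted to the arrays compared, its adjusted p was 0.83.

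**Figure D1:**
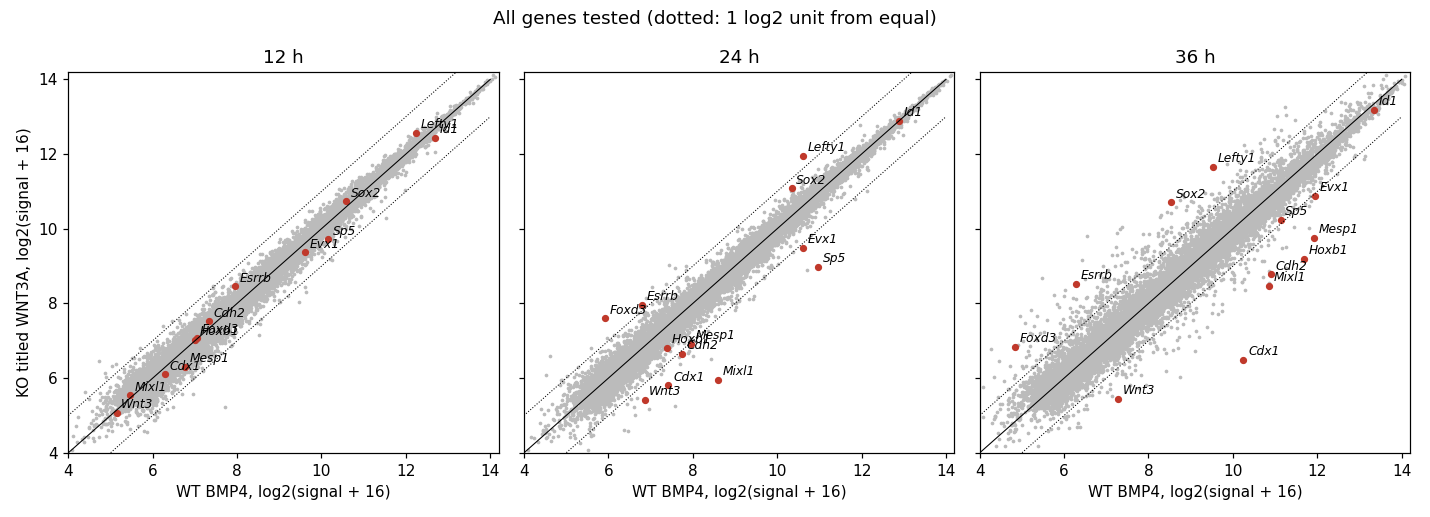
Each point is a gene tested, with the Wnt3-intact BMP4 array on the horizontal axis and the knockout array titled WNT3A on the vertical axis, both as log2(signal + 16), in 1 panel per time. Genes over 1 log2 unit apart numbered 31 at 12 h, 69 at 24 h and 473 at 36 h; red points are named genes, with Cdx1, Mixl1 and Mesp1 below the line and Sox2, Lefty1, Esrrb and Foxd3 above it at 36 h.

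Similarity was lower in the 36 h pair than in the 12 and 24 h pairs. At 12 h, 31 of the 13256 genes (0.234%) were over 1 log2 unit apart between the paired arrays. At 24 h it was 69 genes (0.521%), and at 36 h it was 473 genes (3.57%). At 36 h, 321 genes were higher on the knockout array titled WNT3A (2.42%) and 152 were lower (1.15%). These counts rest on 1 array a side and carry no test. The correlation across genes was 0.992 at 12 h, 0.992 at 24 h and 0.977 at 36 h (Pearson's r, across genes, which are not independent). A test of whether the gap between the groups changed linearly over time called 0 genes (0%), with 1141 at an unadjusted p under 0.05 and a smallest adjusted p of 0.204. That test called 63 genes without the Wnt3-intact BMP4 array at 12 h. In simulated data it recovered 13% of changes of 1 log2 unit and 75% of changes of 2 units, so slopes of moderate size would mostly be missed. In bulk samples such as these, fewer cells of a type and less RNA per cell cannot be told apart.

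BMP response genes had levels near or below those of the Wnt3-intact BMP4 arrays. None of the 11 measured members of the list passed against them, and the median difference was -0.17 beside -0.01 for all genes tested. This list and those below were chosen with earlier results of these data known. Their counts beside the shares of all genes are therefore descriptive. Of the 11, 6 were lower at every time and 1 was higher at every time, beside 15.6% and 13.1% of all genes. Id1, which encodes an inhibitor of helix-loop-helix factors, differed by -0.13 ± 0.43, with a 95% interval from -1.04 to 0.79. Id3, of the same family, read 3468, 4096 and 5442 against 3902, 4390 and 5673. The values were slightly lower in the knockout at every time, by -0.15 ± 0.17 on average. Smad6, whose promoter is printed above, read 232, 260 and 428 against 217, 276 and 564. Its ranges overlapped, and the difference was -0.17 ± 0.18.

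The homeobox genes Msx1 and Msx2, BMP targets that also depend on WNT input in several tissues, lay between the groups. Msx2 read 168, 260 and 885 on the knockout arrays titled WNT3A and 251, 644 and 2150 on the Wnt3-intact BMP4 arrays. It was lower in the knockout at each time, by -1.09 ± 0.55, with an adjusted p of 0.82. On knockout BMP4 arrays Msx2 read 34.3, 78.2 and 491, which was lower than Wnt3-intact BMP4 by -2.55 ± 0.55 (adjusted p = 0.01). Msx1 read 365, 580 and 1370 against 488, 820 and 2369, with a difference of -0.62 ± 0.33, and 103, 149 and 292 on knockout BMP4 arrays. Its difference between the knockout groups, 1.93 ± 0.33, passed with an adjusted p of 0.0036, whereas that of Msx2, 1.46 ± 0.55, did not. Msx1 and Msx2 were the only BMP response genes past the threshold between knockout and Wnt3-intact BMP4 arrays, 2 of 11 against a background of 2.95% lower. Hey1, a Notch and BMP target, read 62.7, 92.4 and 89.3 on the knockout arrays titled WNT3A against 135, 181 and 370 on knockout BMP4 arrays, and was lower by -1.18 ± 0.28 (adjusted p = 0.026). Of 9 BMP ligands, receptors and modulators, none passed in any of these comparisons. Bmp4 itself read 95.7, 73.0 and 744 against 95, 70.5 and 2419, apart only at 36 h.

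Of 15 measured WNT response genes, 8 were lower on knockout BMP4 than on Wnt3-intact BMP4 arrays, beside 2.95% of all genes, and none was higher. None of the 15 passed for the knockout arrays titled WNT3A against Wnt3-intact BMP4, where the median difference was -0.28. In that comparison 10 of the 15 were lower at all 3 times and none was higher at all 3, beside 15.6% and 13.1% of all genes. Against knockout BMP4 arrays, 4 were higher on the arrays titled WNT3A, beside 1.82% of all genes, and none was lower. Sp5, a zinc finger repressor and TCF target, read 815, 488 and 1269 on the knockout arrays titled WNT3A. The Wnt3-intact BMP4 arrays gave 1024, 1924 and 2385, and knockout BMP4 arrays gave 31.1, 20.1 and 15.9. The ranges of the first groups overlapped, Sp5 was lower on the knockout array titled WNT3A at each time, and both groups lay far above the third. The difference of Sp5 from Wnt3-intact BMP4 was -1.11 ± 0.85, with a 95% interval from -2.91 to 0.70, and its difference from knockout BMP4 was 4.42 ± 0.85 (adjusted p = 0.0076).

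Axin2, a scaffold of the complex that degrades beta-catenin, read 380, 326 and 560 on the knockout arrays titled WNT3A and 380, 526 and 904 on Wnt3-intact BMP4 arrays. The arrays were close at 12 h, and the knockout was lower later. The mean difference was -0.51 ± 0.48. Against knockout BMP4 arrays, at 43.1, 31.3 and 40.8, Axin2 was higher by 2.98 ± 0.48 (adjusted p = 0.0024). Tnfrsf19, a receptor of the tumour necrosis factor family and a WNT target, read 739, 755 and 1448 against 787, 976 and 1468. It differed from Wnt3-intact BMP4 by -0.21 ± 0.65 and from knockout BMP4, at 23.9, 19.6 and 12.6, by 4.78 ± 0.65 (adjusted p = 0.0008). Sp8 was the other member that passed against knockout BMP4, at 1.22 ± 0.27 (adjusted p = 0.019).

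Dkk1, Cdx1 and Lef1 were near the Wnt3-intact level at 12 h and below it later. Dkk1 read 101, 79.3 and 505 on the knockout arrays titled WNT3A and 89.3, 236 and 2539 on the Wnt3-intact BMP4 arrays. The arrays were close at 12 h only, and the mean difference was -1.22 ± 0.68. Cdx1, a caudal homeobox gene of the posterior axis, read 52.7, 39.4 and 75.1 against 60.1, 153 and 1287. Its knockout readings stayed below 100 at every time. Cdx1 had a difference of -1.85 ± 0.75, at an unadjusted p of 0.0243 and an adjusted p of 0.82, lower in 3 of 3 pairs. Lef1, a TCF/LEF factor that is itself a target, read 189, 162 and 537 against 187, 265 and 1010. Neither Dkk1, Cdx1 nor Lef1 passed against knockout BMP4 arrays, at 1.59 ± 0.68, 1.16 ± 0.75 and 0.66 ± 0.31.

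**Figure D2:**
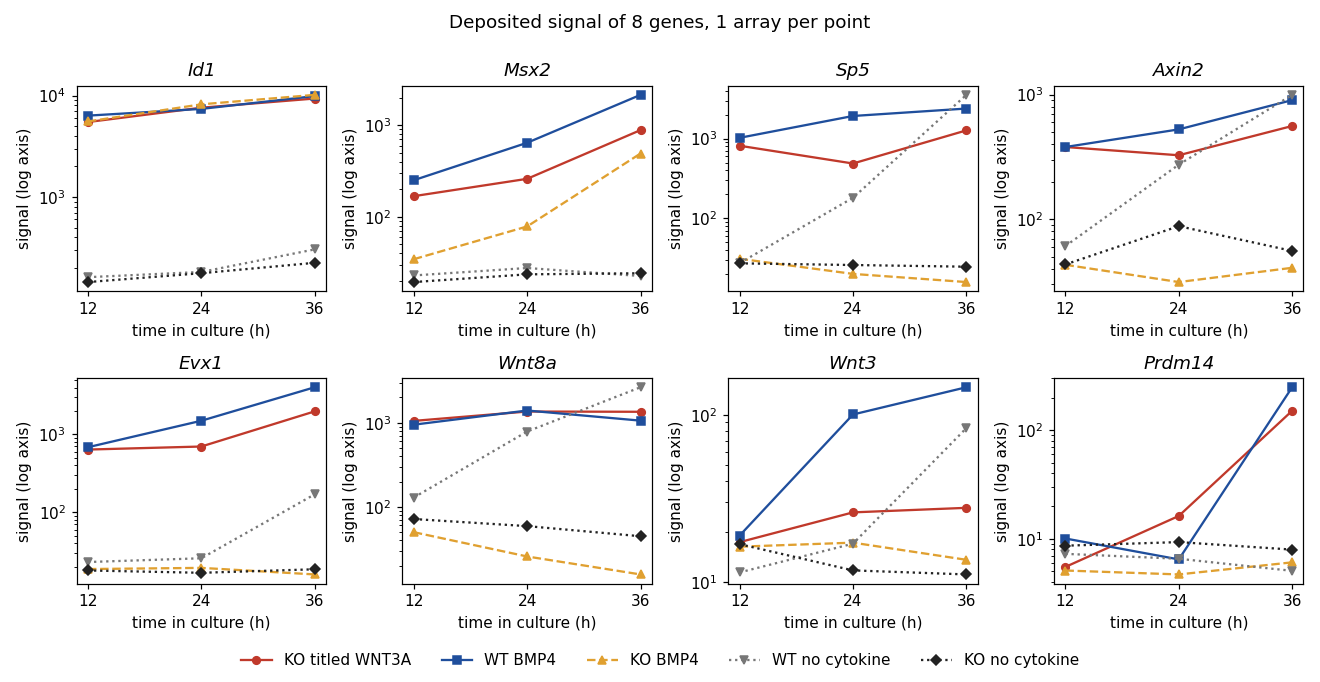
Deposited signal of 8 genes on a log axis against time in culture, 1 array per point, for 5 conditions. Id1 lies with both BMP4 groups; Sp5, Axin2, Evx1 and Wnt8a lie far above knockout BMP4, with Wnt8a near Wnt3-intact BMP4 at each time and Sp5, Axin2 and Evx1 below it at 24 and 36 h; Wnt3 stays below 30 on the knockout arrays titled WNT3A and reaches 146 on Wnt3-intact BMP4.

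Among 20 measured WNT ligands, receptors and modulators, 8 were lower and 3 higher on knockout BMP4 than on Wnt3-intact BMP4 arrays, beside 2.95% and 4.28% of all genes. None passed for the arrays titled WNT3A against Wnt3-intact BMP4. Wnt8a, a ligand of the streak, read 1053, 1361 and 1351 on the knockout arrays titled WNT3A and 949, 1399 and 1060 on the Wnt3-intact BMP4 arrays. The groups overlapped, with a difference of 0.10 ± 0.60. Knockout BMP4 arrays gave 49.9, 25.6 and 15.7 for Wnt8a, lower than the arrays titled WNT3A by 4.82 ± 0.60 (adjusted p = 0.0005). Wls and Porcn, which carry and acylate WNT ligands for secretion, also had Wnt3-intact levels. Wls read 891, 1687 and 3566 against 755, 1652 and 3875, a difference of -0.03 ± 0.15 with a 95% interval from -0.34 to 0.28. Porcn differed by -0.02 ± 0.34. Both were higher than on knockout BMP4 arrays, by 1.12 ± 0.15 (adjusted p = 0.0008) and 2.19 ± 0.34 (adjusted p = 0.002).

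The ligands differed among themselves at 36 h. Wnt5b, a ligand of presomitic mesoderm, read 556, 596 and 1090 on the knockout arrays titled WNT3A and 498, 891 and 3666 on the Wnt3-intact BMP4 arrays. The normalised values were equal at 12 h, with a difference of 0.01, and the knockout was lower afterwards, with a mean difference of -0.80 ± 0.43. Wnt5b still passed against knockout BMP4 arrays, at 3.09 ± 0.43 (adjusted p = 0.00092). The endogenous Wnt3a transcript read 136, 162 and 156 against 163, 151 and 714, apart at 36 h only. Rspo3, which encodes an enhancer of WNT signalling, read 83.9, 131 and 1144 against 79.9, 146 and 1833, a difference of -0.28 ± 0.82. The receptor genes Fzd7 and Fzd8 and the antagonist Sfrp1 were the 3 that were higher on knockout BMP4 than on Wnt3-intact BMP4 arrays. On the arrays titled WNT3A they differed from Wnt3-intact BMP4 by 0.30 ± 0.22, 0.48 ± 0.25 and 0.69 ± 0.47, and none passed.

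Of the 17 primitive streak genes measured, 10 were lower on knockout BMP4 than on Wnt3-intact BMP4 arrays, beside 2.95% of all genes, and none was higher. None passed for the arrays titled WNT3A against Wnt3-intact BMP4, with a median difference of -0.48. The gene named T, or Brachyury, has no value here. Evx1, a homeobox gene of the posterior streak, read 639, 699 and 1978 on the knockout arrays titled WNT3A. It read 685, 1499 and 4040 on the Wnt3-intact BMP4 arrays and 18.6, 19.3 and 15.9 on knockout BMP4 arrays. The knockout arrays titled WNT3A lay below Wnt3-intact BMP4 at each time and above every knockout BMP4 array. The difference of Evx1 from Wnt3-intact BMP4 was -0.81 ± 0.59, with a 95% interval from -2.05 to 0.44, and from knockout BMP4 4.84 ± 0.59 (adjusted p = 0.00044). Its antisense neighbour Evx1os, which cannot be separated from it here without knowing the probes' strand, differed by -0.67 ± 0.56 and 3.75 ± 0.56.

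Fgf8, a growth factor that cells need to leave the streak, read 329, 455 and 545 against 355, 431 and 873. The groups overlapped, and the difference was -0.30 ± 0.49. Nkx1-2, a homeobox gene of the posterior epiblast, read 309, 405 and 855 against 261, 605 and 1226, with a difference of -0.35 ± 0.71. Fst, the activin antagonist follistatin, read 690, 891 and 2165 against 568, 1710 and 3717, with a difference of -0.55 ± 0.63. Fgf8, Nkx1-2 and Fst were all higher than on knockout BMP4 arrays, by 2.98 ± 0.49, 3.75 ± 0.71 and 3.21 ± 0.63, with adjusted p of 0.0027, 0.0065 and 0.0081. Eomes, a T-box gene of the anterior streak, read 803, 458 and 709 against 755, 1596 and 676. It was apart at 24 h only, and its difference from knockout BMP4, 1.69 ± 0.62, did not pass.

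Mixl1 and Mesp1, transcription factor genes of the streak and of nascent mesoderm, had the most negative differences of the streak list against Wnt3-intact BMP4. Mixl1 read 30.1, 45.3 and 355 against 27.5, 360 and 1992. The arrays were close at 12 h and apart at 24 and 36 h, with a mean difference of -1.65 ± 0.85. Mesp1 read 64, 103 and 898 against 86.8, 226 and 3984, and was lower at each time, by -1.21 ± 0.86. On knockout BMP4 arrays Mixl1 read 8.94, 12.1 and 13.1 and Mesp1 64.9, 65.3 and 42.8. Neither gene passed between the 2 knockout groups, at 1.89 ± 0.85 and 1.5 ± 0.86. 

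**Figure D3:**
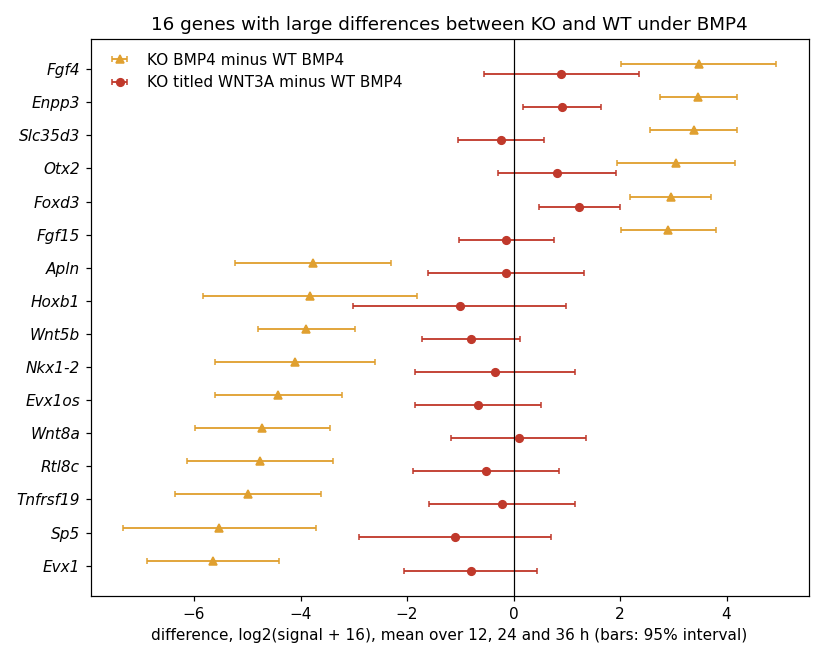
Differences from the Wnt3-intact BMP4 arrays, as the mean over 12, 24 and 36 h with 95% intervals, for the 10 lower and 6 higher genes with the largest differences on knockout BMP4 arrays (orange triangles), beside the knockout arrays titled WNT3A (red circles). The red values lie between -1.11 and 1.24, and the intervals of Foxd3 and Enpp3 lie above 0 before adjustment.

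The 16 genes with the largest differences between knockout and Wnt3-intact BMP4 arrays give the range of the gap. Both comparisons use the same Wnt3-intact BMP4 arrays, so their values stand side by side and are not independent. Besides Evx1, Sp5, Tnfrsf19, Wnt8a, Evx1os, Nkx1-2 and Wnt5b, the lower genes were Rtl8c, Hoxb1 and Apln. Rtl8c, a gene derived from a retrotransposon, read 709, 1176 and 1607 on the knockout arrays titled WNT3A, 744, 1629 and 2837 on Wnt3-intact BMP4 and 50.6, 37.5 and 42.5 on knockout BMP4. Apln, which encodes the peptide apelin, read 162, 1113 and 942 against 128, 1218 and 1287, with 37.8, 26.2 and 26.7 on knockout BMP4. For Rtl8c and Apln the first groups overlapped, and the third lay below both. The higher genes were Fgf4, Enpp3, Slc35d3, Otx2, Foxd3 and Fgf15. Slc35d3, a solute carrier gene, read 45.3, 15.3 and 25.1 against 48.8, 28.1 and 29.4, with 526, 666 and 393 on knockout BMP4. Fgf15 read 110, 123 and 121 against 119, 97.0 and 182, with 771, 1193 and 1351 on knockout BMP4. Enpp3, an ectoenzyme gene, read 274, 223 and 280 against 208, 144 and 59.3, higher in the knockout at each time, with a difference of 0.91 ± 0.34 and an adjusted p of 0.82.

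Many mesoderm genes were lower at 36 h. In the list of posterior and presomitic mesoderm, 8 of 13 members were over 1 log2 unit lower on the knockout array titled WNT3A at 36 h and 1 was higher, beside 1.15% and 2.42% of all genes. The list's median was -0.03 at 12 h, -0.22 at 24 h and -1.15 at 36 h, while that of all genes was -0.012, -0.005 and -0.007. Of 17 nascent and lateral mesoderm genes, 8 were over 1 unit lower at 36 h and none higher, with medians of 0.04, -0.21 and -0.71. No member of these lists passed the tests over all 3 times or of the slope. Some members, such as Msgn1 and Tbx6, were above the array median on only 4 and 7 of 23 arrays. Such genes can pass the filter through the arrays where they are high, so these counts are not independent of it. Msgn1, a regulator of presomitic mesoderm, read 31.8, 29.7 and 49.5 against 25.8, 31.6 and 455. Tbx6, which acts with it, read 29.2, 27.7 and 37.5 against 41.6, 33.8 and 217. Both were near the level of knockout BMP4 arrays (30.9 and 30.3 at 36 h) when Wnt3-intact BMP4 was high.

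Some Hox genes and genes of epithelial to mesenchymal transition were also lower at 36 h. Of 17 listed Hox genes, only 7 could be tested. Of these 7 Hox genes, 4 were over 1 unit lower at 36 h, and of 15 transition genes, 5, beside 1.15% of all genes. Hoxb3 and Hoxa2 were above the array median on only 3 and 6 of 23 arrays. Such genes can pass the filter through the arrays where they are high, so the Hox count is not independent of it. No member of either list passed over the 3 times or by slope. Hoxb1, a Hox gene of the posterior streak, read 115, 93.7 and 609 against 105, 149 and 3373, with a mean difference of -1.01 ± 0.95. Hoxb2 read 57.3, 55.7 and 326 against 77.7, 95 and 1314, lower at each time. Snai1, a repressor of E-cadherin, read 79.3, 64 and 335 against 77.7, 126 and 1113. Cdh2, which encodes N-cadherin, read 168, 82.7 and 452 against 133, 194 and 2048, close at 12 h and lower afterwards. Cdh11, another mesenchymal cadherin gene, read 17.3, 11.4 and 57.7 against 16.9, 36.0 and 355, with a difference of -1.03 ± 0.34 at an adjusted p of 0.82. The epithelial cadherin gene Cdh1 differed by 0.13 ± 0.07, with readings of 6081, 6654 and 6339 against 5367, 6383 and 5442. Hoxb1, Hoxb2, Snai1, Cdh2 and Cdh11 read 9.71, 21.3, 41.6, 118 and 66.3 on the knockout BMP4 array at 36 h.

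**Figure D4:**
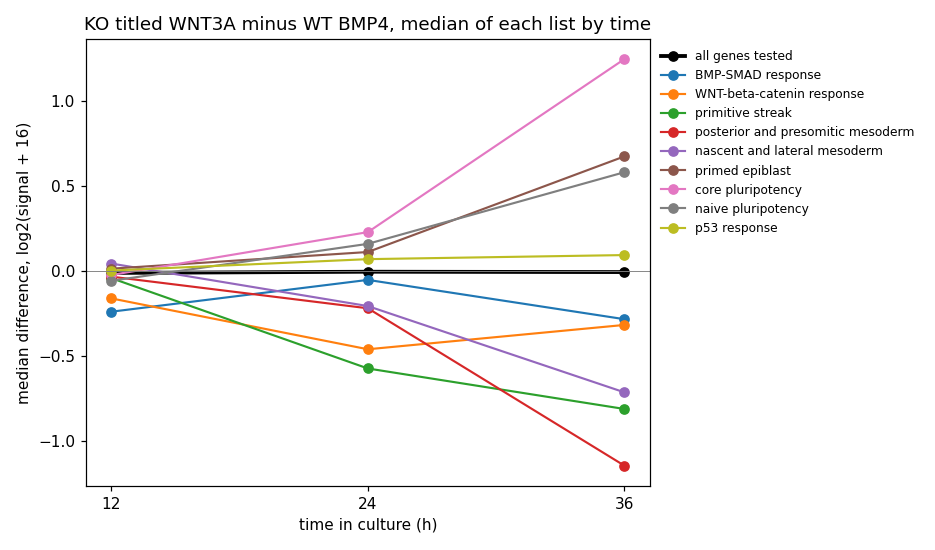
Median difference of each gene list between the knockout array titled WNT3A and the Wnt3-intact BMP4 array, in log2(signal + 16), at 12, 24 and 36 h, with 1 pair of arrays per time. At 36 h posterior and presomitic mesoderm stood at -1.15, primitive streak at -0.81, primed epiblast at 0.67 and core pluripotency at 1.25, and all genes tested stayed near 0.

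Many epiblast and pluripotency genes were higher at 36 h. Of 9 core pluripotency genes, 5 were over 1 log2 unit higher on the knockout array titled WNT3A, beside 2.42% of all genes, and none was lower. The list's medians were -0.02, 0.23 and 1.25 at 12, 24 and 36 h. Of 14 primed epiblast genes, 6 were over 1 unit higher at 36 h, beside the same 2.42%, and none lower. None of either list passed over the 3 times. Sox2, a core pluripotency factor and neural regulator, read 1687, 2180 and 1734 against 1399, 1235 and 388. It was higher in the knockout at each time, by 1.02 ± 0.36, with an unadjusted p of 0.011 and an adjusted p of 0.82. Knockout BMP4 arrays read 3743, 4705 and 3956 for Sox2. Pou5f1, which marks pluripotent cells and their germline, read 9281, 8540 and 7804 against 9542, 8780 and 7913, a difference of -0.05 ± 0.11.

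Foxd3, Otx2 and Pou3f1 had mean levels between Wnt3-intact BMP4 and knockout BMP4. Foxd3, a forkhead factor of the epiblast, read 120, 176 and 100 on the knockout arrays titled WNT3A, 108, 45.6 and 12.7 on Wnt3-intact BMP4 and 545, 407 and 458 on knockout BMP4. The first 2 groups were close at 12 h and apart later, and the third lay above both. Foxd3 differed from Wnt3-intact BMP4 by 1.24 ± 0.36 (unadjusted p = 0.00342, adjusted p = 0.79) and from knockout BMP4 by -1.71 ± 0.36 (adjusted p = 0.013). Otx2, a homeobox gene of anterior epiblast, read 199, 172 and 83.3 against 144, 101 and 20.4, with 596, 849 and 803 on knockout BMP4. Its differences were 0.82 ± 0.52 and -2.24 ± 0.52 (adjusted p = 0.024). Pou3f1, a POU factor of primed epiblast, read 838, 704 and 537 against 917, 422 and 153, with 4040, 2817 and 2091 on knockout BMP4. Its differences were 0.70 ± 0.33 and -2.08 ± 0.33 (adjusted p = 0.002). Fgf4 read 271, 228 and 195 against 176, 94.4 and 81.0, with 1409, 1698 and 1235 on knockout BMP4, between both at each time. Of the 14 genes, 8 were higher and 1 was lower on knockout BMP4 than on Wnt3-intact BMP4 arrays, beside 4.28% of all genes, and 6 were lower on the arrays titled WNT3A than on knockout BMP4, beside 2.16%.

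Naive pluripotency genes divided. Esrrb, an orphan nuclear receptor gene that the repressor TCF7L1 holds down, read 333, 231 and 372 on the knockout arrays titled WNT3A. Wnt3-intact BMP4 arrays gave 205, 95 and 62.7 and knockout BMP4 arrays 59.7, 39.4 and 61.4. The arrays titled WNT3A lay above both other groups without overlap. Esrrb differed from Wnt3-intact BMP4 by 1.31 ± 0.26, higher in 3 of 3 pairs, with an adjusted p of 0.31. The adjusted p was 0.00742 without the Wnt3-intact BMP4 array at 12 h and 0.0441 without all 12 h arrays. Without the Wnt3-intact BMP4 array at 36 h it was 0.947, and without all 36 h arrays the difference was 0.84 (adjusted p = 0.919). It differed from knockout BMP4 by 2.24 ± 0.26 (adjusted p = 0.00036). Other Esrrb probe sets differed from Wnt3-intact BMP4 by 1.25 and 0.14, so the size of that difference depends on the probe set. Klf2, a Kruppel-like factor gene, read 202, 124 and 280 against 195, 54.6 and 77.7, with a difference of 0.84 ± 0.38, and passed against knockout BMP4 at 1.99 ± 0.38 (adjusted p = 0.0069). Zfp42, a naive marker also called Rex1, read 385, 249 and 269 against 267, 162 and 159, higher at each time by 0.54 ± 0.13 (adjusted p = 0.55). Gbx2, in contrast, read 184, 73.5 and 215 against 163, 315 and 917, with a difference of -1.28 ± 0.60. Tet1, a 5-methylcytosine dioxygenase gene, read 1226, 1479 and 1193 against 849, 898 and 512 and differed by 0.75 ± 0.19 (adjusted p = 0.55). Tet1 was above the Wnt3-intact array at each time. Another Tet1 probe set, above the array median on all 23 arrays, differed by 0.18.

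Some Nodal pathway genes were higher at 36 h on these single arrays, and none passed over the 3 times. Lefty1, a secreted Nodal antagonist, read 5997, 3929 and 3397 against 4673, 1499 and 798. It was higher at each time, by 1.26 ± 0.29, with an adjusted p of 0.5. The adjusted p of Lefty1 was 0.0205 without the Wnt3-intact BMP4 array at 12 h and 0.0441 without all 12 h arrays. Without the Wnt3-intact BMP4 array at 36 h it was 0.947, and without all 36 h arrays the difference was 0.83 (adjusted p = 0.919). Gdf3, a Nodal-related ligand, read 1201, 564 and 413 against 1017, 313 and 123, a difference of 0.82 ± 0.23 (adjusted p = 0.79). Nodal itself read 1771, 1489 and 1563 against 1510, 1618 and 1235, a difference of 0.10 ± 0.11. It was higher than on knockout BMP4 arrays, at 1113, 1075 and 1053, by 0.54 ± 0.11 (adjusted p = 0.0077). Of 12 Nodal pathway members, 3 were over 1 unit higher at 36 h and none lower, beside 2.42% higher and 1.15% lower of all genes. Among 15 FGF and ERK feedback genes, 4 were over 1 unit higher and 1 lower at 36 h, and none passed. Fgf5, the epiblast ligand, read 278, 564 and 246 against 237, 292 and 41.6, with a difference of 1.03 ± 0.50.

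Germline genes had levels close to Wnt3-intact BMP4 in most cases. Of 14 genes none passed, and the median difference was 0.19. At 36 h, 3 of the 14 were over 1 log2 unit higher and none was lower, beside 2.42% and 1.15% of all genes. The list's median at 36 h was 0.001. Prdm14, a germ cell regulator, read 5.50, 16.2 and 151 on the knockout arrays titled WNT3A and 10.1, 6.45 and 249 on the Wnt3-intact BMP4 arrays. Both groups had low readings at 12 and 24 h and both were high at 36 h, where the knockout BMP4 array read 6.06. The difference of Prdm14 over the 3 times was -0.12 ± 0.57, with a 95% interval from -1.33 to 1.08. Prdm1, also called Blimp1, read 82.1, 116 and 229 against 57.3, 88.0 and 215, with 55.7, 64.9 and 37.5 on knockout BMP4. It was slightly higher at each time, by 0.28 ± 0.31, and its difference from knockout BMP4, 1.12 ± 0.31, did not pass. Tfap2c, which acts with both in germ cell specification, read 212, 322 and 690 against 155, 288 and 317, a difference of 0.49 ± 0.38. Tfap2c was higher than on knockout BMP4 arrays, at 62.2, 58.9 and 155, by 1.95 ± 0.38 (adjusted p = 0.0086).

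Nanog, Dppa3 and Alpl were apart mainly at 36 h. Nanog read 3692, 3591 and 3169 against 3541, 4330 and 1342, with 1201, 1783 and 1510 on knockout BMP4, and its difference from Wnt3-intact BMP4 was 0.31 ± 0.57. Dppa3, or Stella, read 446, 191 and 313 against 428, 165 and 102, a difference of 0.52 ± 0.30. Alpl, tissue-nonspecific alkaline phosphatase, read 1176, 671 and 657 against 969, 685 and 1031. Alpl differed by -0.18 ± 0.29 from Wnt3-intact BMP4 and was higher than on knockout BMP4 arrays by 1.14 ± 0.29 (adjusted p = 0.035).

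**Figure D5:**
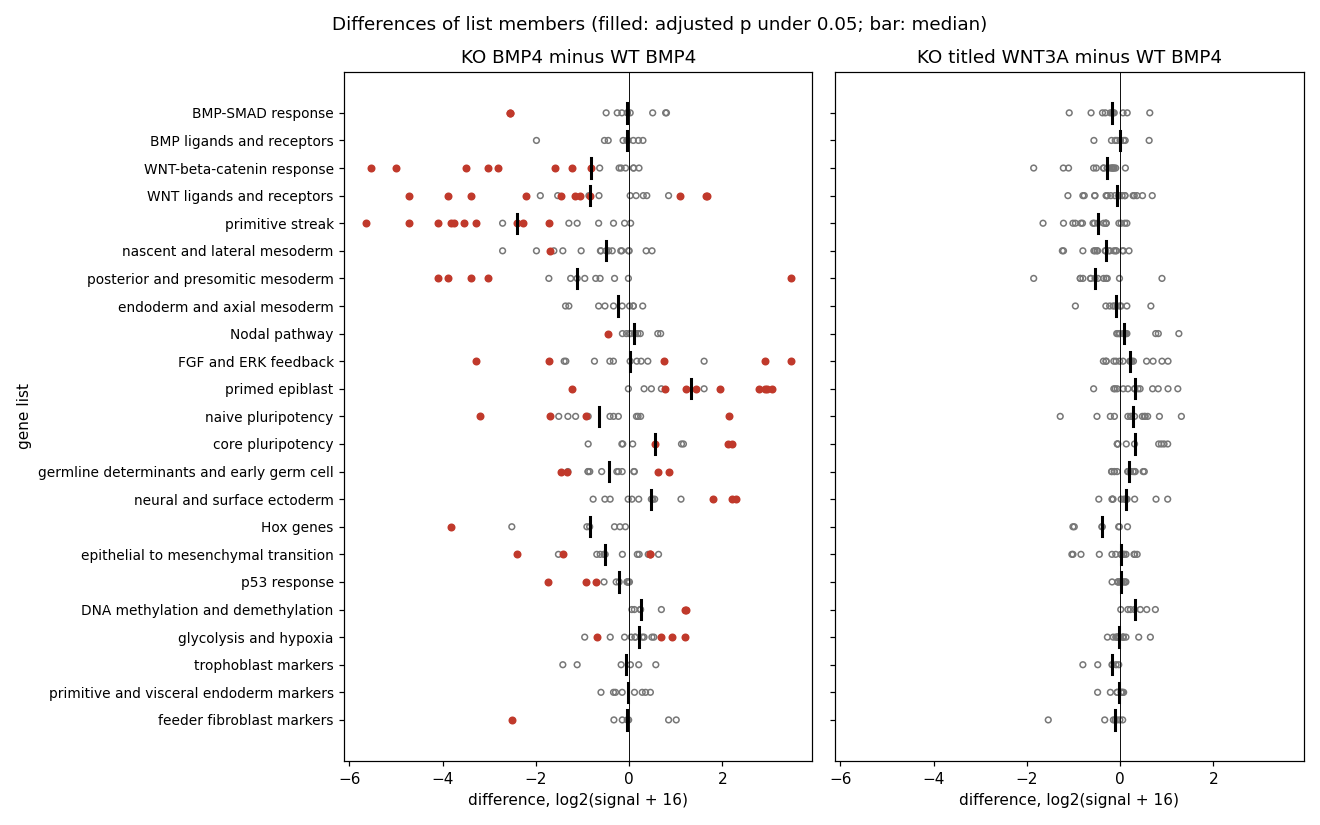
Each circle is a list member's difference from the Wnt3-intact BMP4 arrays over the 3 times in log2(signal + 16), for knockout BMP4 arrays on the left and knockout arrays titled WNT3A on the right; filled circles passed an adjusted p of 0.05 and bars are medians. The right panel has no filled circle, and its list medians lie between -0.54 and 0.31.

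DNA methylation and demethylation genes had medians of 0.21 (12 h), 0.06 (24 h) and 0.80 (36 h), and 3 of 7 members (Dnmt3l, Tet1 and Uhrf1) were over 1 unit higher at 36 h, beside 2.42% of all genes. None of the 7 passed. Uhrf1, which brings DNMT1 to replicating DNA, read 1409, 1075 and 1489 against 1060, 1252 and 622, higher at 12 and 36 h only. The list of p53 response genes had a median difference of 0.01 over 11 members, with none over 1 unit apart at any time. Its member Cdkn1a, a cell cycle inhibitor, read 1342, 1067 and 1898 against 1136, 1663 and 1438, with 329, 440 and 523 on knockout BMP4. It passed between the knockout groups, at 1.68 ± 0.23 (adjusted p = 0.00092). Glycolysis and hypoxia genes had a median of -0.03 and neural and surface ectoderm genes of 0.12.

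Markers of other cells that the cultures could hold were compared as well. Of 6 trophoblast, 8 primitive and visceral endoderm and 7 feeder fibroblast genes that could be tested, none passed between the compared groups. Of the markers left out by the filter on low values, Col1a1 read at most 14.9 on the 6 arrays, Postn at most 6.5, Afp at most 18.3 and Elf5 at most 16.7. Tpbpa, Lum and Apoa1 read at most 13.2, 12.2 and 15.7. Ttr reached 32.0, and Sox7 read 52.7 on the Wnt3-intact BMP4 array at 36 h and 26.4 on the knockout array titled WNT3A. Some tested markers had clear readings: Acta2 read 474 to 1038, Col1a2 154 to 300, Thy1 41.9 to 320, Hnf4a 131 to 172, Dab2 138 to 167 and Amn 39.4 to 191. Gata6, which the endoderm shares with mesoderm, read 58.5 on the knockout array titled WNT3A at 36 h and 155 on the Wnt3-intact BMP4 array. Hand1 and Cdx2, which the trophoblast shares with mesoderm, read 385 and 79.9 on the knockout array titled WNT3A at 36 h and 1261 and 205 on the Wnt3-intact BMP4 array. Pdgfrb, a fibroblast marker also present in mesoderm, read 91.8 and 584 on the same arrays. Fap read between 6427 and 7750 on all 6 arrays, and the groups overlapped. The summed signal of the 6 trophoblast genes was 295 to 754 on the knockout arrays titled WNT3A and 380 to 1807 on the Wnt3-intact BMP4 arrays. That of the 7 fibroblast genes was 7663 to 8833 and 8122 to 8998. Fap alone gave most of each fibroblast sum, so these sums say little about the other fibroblast genes. The part of other cells in the 36 h differences was not tested. Among markers of epiblast-like cells, Dnmt3b, a de novo DNA methyltransferase gene, read 10016, 9281 and 7591 against 9675, 8659 and 4360.

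Each line's own arrays without cytokine were then subtracted. The response of the knockout arrays titled WNT3A minus the response of Wnt3-intact BMP4 passed for 0 of 13256 genes (0%), with 606 at an unadjusted p under 0.05 and a smallest adjusted p of 0.997. Its 95% interval lay within 1 log2 unit of 0 for 11751 genes (88.6%). For some genes the interval excluded 0 before adjustment, as for Wnt8a (3.30 ± 0.85), Tnfrsf19 (3.09 ± 0.92), Nkx1-2 (2.94 ± 1.00) and Slc35d3 (-1.54 ± 0.54). Without cytokine at 36 h, Wnt8a, Tnfrsf19 and Nkx1-2 read 2647, 1978 and 3769 on the Wnt3-intact array and 44.6, 19.3 and 32.7 on the knockout array. On the Wnt3-intact BMP4 array they read 1060, 1468 and 1226, so those levels were no rise with BMP4 at that time. With the labels exchanged, the difference of responses passed for 8 genes. In simulated data with 100 changed genes per size, each shifted equally at all 3 times, the test recovered 80% of changes of 1 log2 unit and 97% of changes of 2 units. The corresponding shares for the direct comparison were 88% and 100%. Gaps that open over time were not simulated for either test, so those shares do not describe genes apart only at 36 h. Whether those shares hold for the named genes was not tested. In the direct comparison, named genes with a large standard error did not pass (limma). Examples are Hoxb1 at -1.01 ± 0.95 (adjusted p = 0.86) and Sp5 at -1.11 ± 0.85 (adjusted p = 0.86).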

How the data were processed

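RNA was amplified, labelled and hybridised to Affymetrix arrays, per the labels' protocols; the platform annotation is that of the Mouse Genome 430 2.0 array. The deposited values are linear signal intensities of the authors, 1 per probe set and array; no source used here states how they were summarised and scaled. Of 45101 probe sets, 34958 had 1 gene symbol, 932 several and 9211 none. Symbols were updated through RefSeq identifiers (34754 matched), which left 18194 genes, each represented by its probe set of highest mean. Signals were quantile-normalised because upper quartiles of the arrays differed by 0.37 log2 units. Genes above the array median on at least 3 arrays were kept (13256). Differences are on the log2(signal + 16) scale, which understates changes of low genes. The number of arrays limits the precision.

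limma 3.58.1 (R 4.3.3) fitted 7 conditions and 3 times over 21 arrays, with 12 residual degrees of freedom; slopes left 7. Arrays were paired by time, as the labels give it. Named genes are list members, the 10 lower and 6 higher genes with the largest differences between knockout and Wnt3-intact BMP4, and 5 markers. The members and lists were chosen with earlier results of these data known. Scripts were tested on simulated data, with 100 changed genes per size. Alternatives covered scaling, offset, filter, probe sets, variance model, arrays left out and the exchanged labels.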

Additional observations from a re-analysis of the deposited data

How the results depend on the processing

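The count of 1 gene between the knockout arrays titled WNT3A and Wnt3-intact BMP4 was 11 with array weights, 0 with only the arrays compared, 0 without the 3 knockout arrays titled BMP4+WNT3A, and 125 with labels exchanged. It was 0 without the time block, that is with no replicate block, and 0 to 6 when arrays or times were left out. The cause was not tested. The count of 0 for slopes was 0 to 63 when arrays were left out, with 63 without the Wnt3-intact BMP4 array at 12 h and 1 without the knockout array titled WNT3A at 24 h. For the difference of responses, 0 became 8 with labels exchanged. The count of 958 for knockout BMP4 against Wnt3-intact BMP4 was 243 with an added limit of 1 log2 unit, which by construction keeps fewer genes, 117 with only the arrays compared, 265 with no replicate block and 7 to 905 when arrays or times were left out. With labels exchanged, Id2 changed from 0.15 to -4.29, and genes that had not passed did so: Id1 (-4.32), Msx2 (-4.26), Msx1 (-3.03), Evx1 (-2.96), Evx1os (-2.82), Smad6 (-1.60), Id3 (-1.28), Wls (-0.93), Enpp3 (2.61), Fgf5 (2.23), Klf2 (1.87), Lefty1 (1.86) and Esrrb (1.53), with adjusted p from 0.000151 to 0.0433. Other scaling, offsets, filters, probe set rules and prior variance left each of the 4 counts within 1.5 times. Other probe sets of some named genes had smaller or opposite differences between the compared groups, given here beside the probe set used. Examples are Gdf3 (0.16 beside 0.82), Fgf5 (0.29 beside 1.03), Sfrp1 (-0.15 beside 0.69), Pou3f1 (-0.16 beside 0.70) and Nkx1-2 (0.34 beside -0.35). Those of Msx1 (-0.52 beside -0.62), Cdh2 (-0.92 beside -1.01) and Wnt5b (-0.87 beside -0.80) were similar. Slopes were not refitted without a whole time, without the time term or on the compared arrays alone.
With 1 array per condition and time and a linear signal with no detection calls, low readings such as those of Prdm14 at 12 and 24 h have no order.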

Other observations

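Some genes outside the lists had small p-values without passing the threshold, and they were singled out after their values were seen. Eya1, a transcriptional coactivator gene, read 60.5, 111 and 133 on the knockout arrays titled WNT3A and 42.2, 52.0 and 50.6 on the Wnt3-intact BMP4 arrays, a difference of 0.82 ± 0.14 with an adjusted p of 0.133 (limma), higher in 3 of 3 pairs. Tex19.1, a gene of germ cells and pluripotent cells, read 215, 81.0 and 73.5 against 117, 52.0 and 24.8, a difference of 0.80 ± 0.15 (adjusted p = 0.21). Platr22, a non-coding transcript of pluripotent cells, read 55.7, 85.0 and 92.4 against 41.9, 40.5 and 34.3 (adjusted p = 0.21). With array weights, Eya1, Tex19.1 and Platr22 passed, at adjusted p of 0.00949, 0.0263 and 0.0263.

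Mt1, which encodes a metallothionein that binds zinc and copper, had the smallest p-value for a change of the gap over time, and its neighbour Mt2 had a similar course. Mt1 read 8719, 6985 and 9810 on the knockout arrays titled WNT3A and 8659, 5113 and 2504 on the Wnt3-intact BMP4 arrays. Mt2 read 8023, 5713 and 8364 against 8079, 4804 and 2257. The arrays were close at 12 h and apart at 36 h for both. The gap widened by 2.03 and 1.99 log2 units from 12 to 36 h, with adjusted p of 0.204 and 0.377 (limma). Frmd4a, which encodes a scaffold protein of cell polarity, read 86.2, 78.8 and 94.4 against 64, 8.82 and 3.27, and its difference of 1.59 ± 0.42 had an adjusted p of 0.71.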
